A study of Mus musculus with 9 samples.

Results

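The data described here are the transcript levels of 9 genes for transcription factors of myeloid cells, namely *Spi1*, *Cebpa*, *Cebpb*, *Cebpd*, *Cebpe*, *Irf8*, *Gfi1*, *Klf4* and *Maf*. They were chosen by name from the authors' table of FPKM (fragments per exon length and per reads counted, a level that allows genes to be compared), and all 9 were found among its 55322 genes. The 9 libraries fall into 3 groups of 3, all from WT C57BL/6 mice. CD11b+ B cells and CD11b- B cells were sorted from the BM of mice injected i.p. 48 h earlier with LPS, a bacterial endotoxin, at 5 mg/kg. BM cells bearing CD3, CD4, CD8, Gr-1, NK1.1 or TER119, which mark T cells, granulocytes, NK cells and erythroid cells, were depleted before that sort. PMs, which are peritoneal macrophages carrying CD11b and F4/80, were sorted from naive, untreated mice and serve as the myeloid reference. The B cells and the PMs therefore differ in cell type, tissue and LPS, whose parts cannot be told apart. The labels do not say whether the 3 libraries of a group came from separate mice, and they give no age, so p-values measure only the spread between these libraries.

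Transcription factors of these families set the fate of blood progenitors. PU.1, the product of *Spi1*, and the C/EBP proteins act together on the enhancers of myeloid genes, and IRF8, GFI1, KLF4 and c-MAF then separate monocytes, granulocytes and macrophages. PU.1, IRF8 and GFI1 also have known roles in B cell development, whereas C/EBPα and C/EBPβ are known for turning B cell precursors into macrophages when they are introduced experimentally.

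The libraries held from 18014658 to 29208721 reads on genes in PMs, from 32056102 to 34895579 in CD11b- B cells and from 26174718 to 35251215 in CD11b+ B cells. Among 12 B cell markers (*Cd79a*, *Ms4a1* and others), all 12 were called higher in either B cell group than in PMs (21.5% of all genes for CD11b+ and 25.8% for CD11b- B cells), and their summed FPKM was 13790 to 16980 in CD11b+ and 14100 to 15900 in CD11b- B cells. All 12 macrophage markers were called lower in both groups (8.78% and 11% of all genes). *Itgam*, which encodes the CD11b used for the sort, was at 1.92, 1.31 and 1.51 FPKM in the CD11b+ libraries and at 0.3996, 0.251 and 0.869 in the CD11b- libraries, against 251 to 358 in PMs. Markers of neutrophils moved with the CD11b sort. The summed FPKM of 16 such genes was 675, 1611 and 219.9 in CD11b+ libraries 1 to 3, and 2.07 to 3.31 in CD11b- B cells. All 16 had the higher mean in CD11b+ B cells, and 14 did not overlap (8.63% of all genes). limma called 3 of them, *S100a8*, *S100a9* and *Retnlg* (0.0689% of all genes), and all 16 had an unadjusted p under 0.05 (7.68%), while edgeR called 10 (0.269%) and DESeq2 15 (2.26%). *Ly6g* was at 0 reads in PMs, and none of the 16 was at 0 in either B cell group.

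Of the 9 genes, 5 have an entry in the RefSeq promoter table for GRCm38.p6, which holds the 250 bases before each transcript start used here. The windows of *Cebpa* and *Cebpb* are shown because they had the largest differences of the 9 between PMs and CD11b+ B cells on the log2(FPKM + 1) scale, and that of *Irf8* because its level differed in the opposite direction. Capitals mark matches on either strand to 3 motifs. The first is the TATA box, searched as TATAAA, which fixes where transcription begins. The second is the GAS element that STAT proteins bind, searched as TTCNNNGAA. The third is the core of the cAMP response element, searched as TGACG.
Cebpa, chr7:35119043-35119292, + strand: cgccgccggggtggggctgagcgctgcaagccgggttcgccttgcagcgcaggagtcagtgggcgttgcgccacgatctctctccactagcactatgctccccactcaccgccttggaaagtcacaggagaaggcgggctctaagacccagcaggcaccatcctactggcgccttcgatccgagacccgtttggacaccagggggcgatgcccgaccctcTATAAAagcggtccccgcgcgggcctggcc
Cebpb, chr2:167688665-167688914, + strand: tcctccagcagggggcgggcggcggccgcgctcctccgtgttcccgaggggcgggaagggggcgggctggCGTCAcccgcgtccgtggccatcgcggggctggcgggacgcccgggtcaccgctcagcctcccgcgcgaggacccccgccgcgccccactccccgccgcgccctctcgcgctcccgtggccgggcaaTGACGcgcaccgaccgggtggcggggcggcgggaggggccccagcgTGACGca
Irf8, chr8:120736108-120736357, + strand: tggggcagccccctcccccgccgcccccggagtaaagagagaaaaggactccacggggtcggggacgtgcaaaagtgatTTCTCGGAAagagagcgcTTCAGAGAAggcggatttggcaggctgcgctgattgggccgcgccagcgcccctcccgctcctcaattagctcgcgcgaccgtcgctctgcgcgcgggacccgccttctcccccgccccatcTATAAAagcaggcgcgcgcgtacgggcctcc
The *Cebpa* window has 1 TATA box, which begins 30 bases before the start, and the *Irf8* window has 1 that begins 31 bases before it. The *Irf8* window also has 2 GAS matches, which begin 171 and 153 bases before the start. The *Cebpb* window has no TATA box and 3 cAMP cores, at 180, 53 and 7 bases before the start, and its GC content of 81.6% compares with a median of 52.4% over all windows. Of all 32851 promoter windows of this length, 12.4% hold TATAAA, 7.02% hold TTCNNNGAA and 17.8% hold TGACG. Neither GAGGAA (a PU box, in 23.3% of all windows) nor the double GAAA element of IRF proteins (2.98%) was found in any of the 7 windows of the 5 genes, and TTNNGCAA (a relaxed C/EBP site, 9.56%) was found in 1, the first of the 2 windows of *Gfi1*. Such matches describe the letters and are not measured binding sites.

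*Spi1* (ENSMUSG00000002111; GRCm38 2:91082390-91115756, + strand) encodes PU.1, an ETS factor needed for both macrophages and B cells. Its FPKM was 69.6, 132 and 88.8 in PMs, 40.6, 40.2 and 51.1 in CD11b- B cells, and 38.4, 42.1 and 32.7 in CD11b+ B cells. The B cell groups overlapped with each other and lay below all 3 PM libraries. *Spi1* was the gene of the 9 with the highest level in PMs, 96.7 ± 31.7 (SD, n = 3), and the second highest in both B cell groups.

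*Irf8* (ENSMUSG00000041515; 8:120736358-120756694, + strand), a partner of PU.1 that is needed for monocytes and dendritic cells and is also active in B cells, showed the opposite order. Its FPKM was 19.96, 16.4 and 16.2 in PMs, 122, 122 and 130 in CD11b- B cells and 96.5, 107 and 99.0 in CD11b+ B cells. The 3 groups did not overlap, and PMs were the lowest. The level of *Irf8* relative to *Spi1* was 0.124 to 0.287 in PMs, 2.54 to 3.04 in CD11b- and 2.51 to 3.03 in CD11b+ B cells, so that the B cell groups overlapped in this ratio although both stood above PMs.

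*Gfi1* (ENSMUSG00000029275; 5:107716657-107726036, - strand) encodes a zinc finger repressor that favours granulocytes over monocytes and is present in early B cells. Its FPKM was 0.383, 0.0215 and 0 in PMs, from 22, 2 and 0 reads. It was 4.83, 4.11 and 2.06 in CD11b- B cells and 2.09, 3.27 and 1.53 in CD11b+ B cells. Every B cell library was above every PM library, and the B cell groups overlapped.

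*Cebpa* (ENSMUSG00000034957; 7:35119293-35121928, + strand) encodes C/EBPα, the factor that commits progenitors to granulocytes and monocytes. Its FPKM was 19.6, 18.6 and 15.1 in PMs, 0, 0.0217 and 0.0355 in CD11b- B cells and 0.0517, 0.261 and 0.161 in CD11b+ B cells. These B cell values rest on 0, 2 and 3 reads and on 4, 18 and 15 reads. All 3 CD11b+ libraries lay above all 3 CD11b- libraries, and both groups were far below PMs.

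*Cebpb* (ENSMUSG00000056501; 2:167688915-167690418, + strand) encodes C/EBPβ, which drives emergency granulopoiesis and macrophage activation. Its FPKM was 62.6, 28.8 and 20.8 in PMs, 0.120, 0.114 and 0 in CD11b- B cells (6, 6 and 0 reads) and 0.0679, 0.102 and 0.264 in CD11b+ B cells (3, 4 and 14 reads). The B cell groups overlapped. *Tmem189*, on the other strand, covers 20.7% of the exon bases of *Cebpb*, and the sources used here do not say whether reads were assigned by strand, so these few reads are uncertain.

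*Cebpd* (ENSMUSG00000071637; 16:15887286-15891031, + strand) encodes C/EBPδ, an acute phase factor of macrophages. Its FPKM was 10, 5.42 and 9.26 in PMs, 0.160, 0.153 and 0.266 in CD11b- B cells (20, 20 and 32 reads) and 0.300, 0.796 and 0.409 in CD11b+ B cells (33, 78 and 54 reads). The CD11b+ values were all above the CD11b- values. Exons of *Spidr* on the other strand cover 15% of its exon bases, with the same uncertainty.

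*Cebpe* (ENSMUSG00000052435; 14:54710360-54712174, - strand) encodes C/EBPε, which turns on the secondary granule genes of neutrophils. It was the lowest of the 9 genes in PMs, at 0.179, 0 and 0 FPKM, and in CD11b- B cells, at 0, 0 and 0.0503. In CD11b+ B cells it was at 0.466 and 0.523 in libraries 1 and 2, from 17 reads each, and at 0 in library 3, so the CD11b+ libraries overlapped with both other groups through that library alone. PMs and CD11b- B cells overlapped as well.

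*Klf4* (ENSMUSG00000003032; 4:55527143-55532466, - strand) encodes a Krüppel-like factor of monocytes. Its FPKM was 26.5, 20.4 and 18.8 in PMs, 0.226, 0.301 and 0.0819 in CD11b- B cells (23, 32 and 8 reads) and 0.368, 1.32 and 0.679 in CD11b+ B cells (33, 105 and 73 reads). The 3 groups did not overlap. *Maf* (ENSMUSG00000055435; 8:115682942-115707794, - strand) encodes c-MAF, which restrains macrophage self-renewal and promotes *Il10*. Its FPKM was 16.9, 8.08 and 10.2 in PMs, 0.189, 0.101 and 0.420 in CD11b- B cells and 0.537, 0.241 and 0.609 in CD11b+ B cells, where the second CD11b+ library fell within the CD11b- range.

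**Figure D1:**
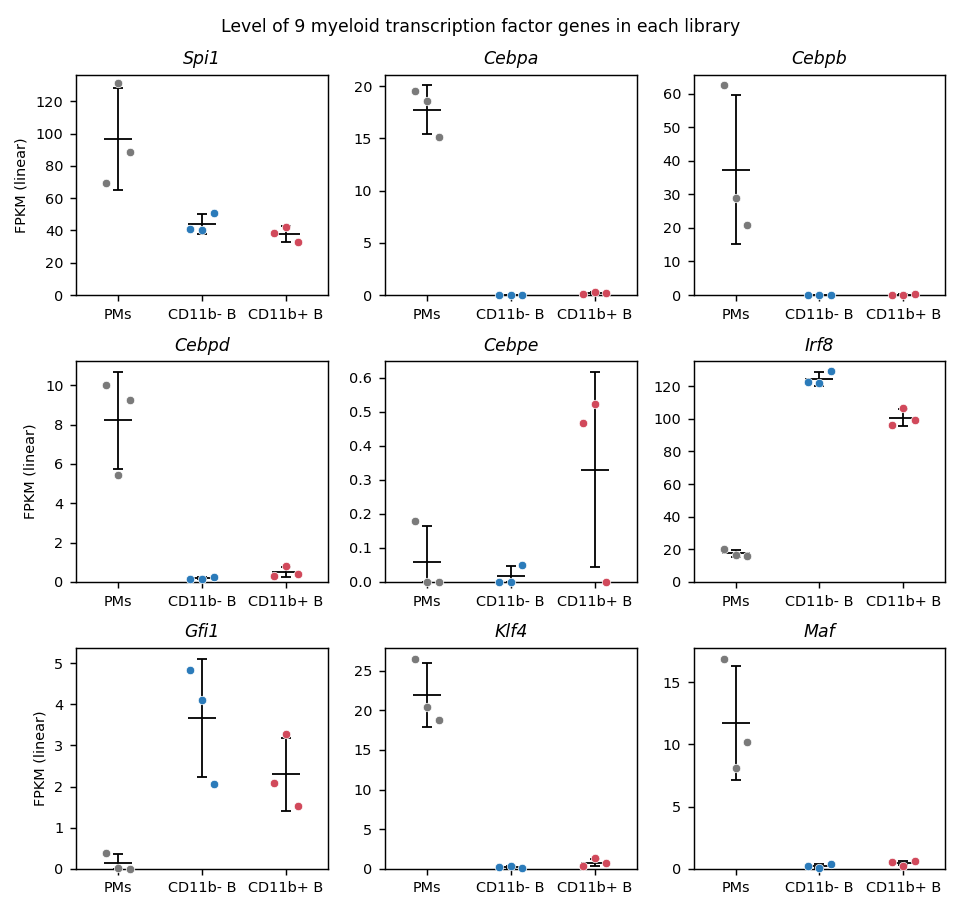
FPKM of the 9 genes on linear axes that start at 0. Each point is 1 library, and the black bars are the mean and SD of 3 libraries (SD cut at 0). *Cebpa*, *Cebpb*, *Cebpd*, *Klf4* and *Maf* were high in PMs and near 0 in both B cell groups, *Spi1* was present in all 3 groups, and *Irf8* and *Gfi1* were higher in B cells.

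The order of the 9 levels differed between PMs and B cells. In PMs *Spi1* came first and did not overlap with *Cebpb*, the next at 37.4 ± 22.2 FPKM. *Cebpb*, *Klf4*, *Cebpa*, *Irf8*, *Maf* and *Cebpd* followed each other with overlapping libraries from one to the next, down to 8.23 ± 2.46 for *Cebpd*, and *Gfi1* and *Cebpe* were below 0.4 in every library. In CD11b- B cells the order began with *Irf8* at 125 ± 4.26, *Spi1* at 43.9 ± 6.18 and *Gfi1* at 3.67 ± 1.44, none of which overlapped with its neighbours. The same 3 genes led in CD11b+ B cells, at 101 ± 5.34, 37.8 ± 4.75 and 2.30 ± 0.889. The other 6 followed with means from 0.788 (*Klf4*) to 0.145 (*Cebpb*) in CD11b+ B cells and from 0.237 (*Maf*) to 0.0168 (*Cebpe*) in CD11b- B cells. Each of these 6 overlapped with the next in CD11b+ B cells, and all but *Cebpd* did in CD11b- B cells.

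Whether CD11b+ B cells carry more of these factors than CD11b- B cells was tested first. A gene is called here at a Benjamini-Hochberg adjusted p under 0.05 from limma on log2(FPKM + 1), adjusted over all genes tested. None of the 9 genes was called (0 of 9), where 15 of 21778 genes (0.0689%) were called, all 15 higher (0.0689%) and 0 lower (0%). At an unadjusted p under 0.05, limma marked 2 of the 9, *Irf8* and *Klf4*, and 7.68% of all genes. edgeR called 0 of the 6 that passed its filter (0.269% of all genes), and DESeq2 called 0 of the 8 to which it gave an adjusted p, all but *Cebpb* (2.26% of all genes). The adjusted p-values from limma ran from 0.643 (*Irf8*) to 0.811 (*Cebpb*).

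The direction split the genes by their level in B cells. All 6 genes with a mean under 1 FPKM in both B cell groups had the higher mean in CD11b+ B cells, and all 3 genes with a mean above 2 FPKM in both had the lower mean. The share of all genes at such levels with these directions was not counted. More genes of any kind had a read in the CD11b+ libraries (23767, 27321 and 26919) than in the CD11b- libraries (21128 to 22882). The libraries did not overlap for 4 of the 9 genes, where 14.9% of all genes tested did not overlap. These were *Cebpa*, *Cebpd* and *Klf4*, which were higher (background 8.63%), and *Irf8*, which was lower (background 6.32%). The exact two-sided permutation test gave p = 0.1 for each of these 4, the smallest that 3 libraries against 3 allow. The median difference of the 9 genes was 0.18 on the log2(FPKM + 1) scale, and that of all genes tested was 0.03. Among all genes averaging at least 1 FPKM the median was -0.00673 on the same scale. This scale understates the change of genes at low FPKM.

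*Klf4* differed by 0.54 ± 0.23 on that scale (SE; limma adjusted p = 0.644), with a mean FPKM 3.88 times as high in CD11b+ B cells. For *Cebpa* the difference was 0.18 ± 0.11 (adjusted p = 0.725 by limma). Its summed reads were 37 against 5, a ratio of 8.18 per read sequenced with a 95% exact counting interval from 3.21 to 26.7. *Cebpd*, the acute phase factor, differed by 0.32 ± 0.17 (limma adjusted p = 0.688), with a ratio of mean FPKM of 2.60. *Irf8* differed by -0.30 ± 0.12 (limma adjusted p = 0.643), with a mean of 0.809 times that in CD11b- B cells. Without CD11b+ library 2 the differences of *Klf4*, *Cebpd* and *Cebpa* were 0.34, 0.18 and 0.12.

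The remaining genes had overlapping libraries. *Maf* differed by 0.24 ± 0.18 on the log2(FPKM + 1) scale and *Cebpb* by 0.08 ± 0.12, with mean ratios of 1.95 and 1.85, and the counting interval of the *Cebpb* reads (21 against 12) ran from 0.909 to 4.31. *Spi1*, at -0.21 ± 0.16, and *Gfi1*, at -0.48 ± 0.33, had mean ratios of 0.860 and 0.627. With 1 library left out, the difference ran from -0.76 to -0.29 for *Gfi1* (without CD11b- libraries 3 and 1), from -0.29 to -0.10 for *Spi1* (without CD11b+ library 2 and CD11b- library 3) and from 0.01 to 0.13 for *Cebpb* (without CD11b+ libraries 3 and 1), and the order of the 9 differences changed with the library left out. For *Cebpe* the difference was 0.36 ± 0.18 (limma adjusted p = 0.679). Its 34 reads against 2 gave a ratio of 18.8 with an interval from 4.82 to 161, and all 34 came from 2 of the 3 CD11b+ libraries. These intervals cover the counting of summed reads only and leave out the spread between libraries. The libraries carry no molecular identifiers, so copies of 1 molecule can count as separate reads and the intervals can be too narrow. None of the 9 differences passed limma's test after adjustment over all genes, which does not show that the groups are alike.

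**Figure D2:**
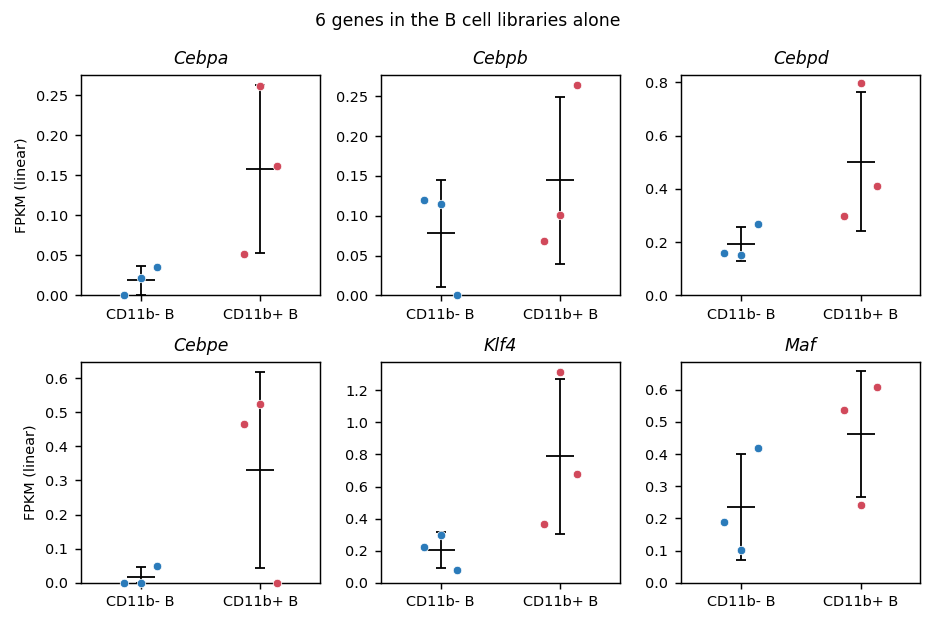
FPKM of the 6 genes with low levels in B cells, drawn for the B cell libraries alone on linear axes that start at 0. Points are libraries, and black bars are the mean and SD of 3 (SD cut at 0). No CD11b+ point is below a CD11b- point for *Cebpa*, *Cebpd* and *Klf4*, and *Cebpe* was at 0 in the third CD11b+ library.

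Like these 6 genes, most markers of other myeloid cells had the higher mean in CD11b+ B cells. Besides the 16 neutrophil markers given above, 11 of 12 macrophage markers had the higher mean in CD11b+ B cells, with a summed FPKM of 325, 304 and 122 against 42.9 to 60.5 in CD11b- B cells. None of these 12 was at 0 reads in either B cell group. All 12 monocyte markers had the higher mean, with sums of 55.2 to 74.8 against 27.8 to 33.4, and *Cd300e* and *Treml4* were at 0 reads in CD11b- B cells. limma tested 11 markers of each of these 2 lists and called 0 (0.0689% of all genes), with 8 of each at an unadjusted p under 0.05 (7.68%). edgeR called 2 macrophage markers and 1 monocyte marker (0.269%), and DESeq2 called 7 of each list (2.26%). The part of such cells in the differences of *Cebpa*, *Cebpd*, *Cebpe*, *Klf4* and *Maf* was not tested, and in sorted bulk samples fewer cells with a transcript and less transcript per cell cannot be told apart. The summed FPKM of the 6 genes was 1.79, 3.24 and 2.12 in CD11b+ libraries 1 to 3 and 0.691 to 0.854 in CD11b- libraries. CD11b+ library 2 had the highest neutrophil marker sum and the highest *Cebpa*, *Cebpd*, *Cebpe* and *Klf4*, whereas *Cebpb* and *Maf* were highest in library 3, which had the lowest neutrophil and macrophage sums and the highest monocyte sum of the 3.

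As a share of the PM mean, the 12 macrophage markers were at 0.181 to 4.45% in CD11b+ B cells (median 0.719%) and at 0.0682 to 4.55% in CD11b- B cells (median 0.108%). *Cebpb* and *Cebpa* lay within that range in CD11b+ B cells, at 0.386% and 0.889%. *Klf4* was at 3.60%, *Maf* at 3.95% and *Cebpd* at 6.10% of the PM mean. The corresponding shares in CD11b- B cells were 0.107% for *Cebpa*, 0.208% for *Cebpb*, 0.926% for *Klf4*, 2.02% for *Maf* and 2.35% for *Cebpd*. Only *Cebpd* of these 5 exceeded the highest share of the macrophage list in CD11b+ B cells, that of *Mrc1*.

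**Figure D3:**
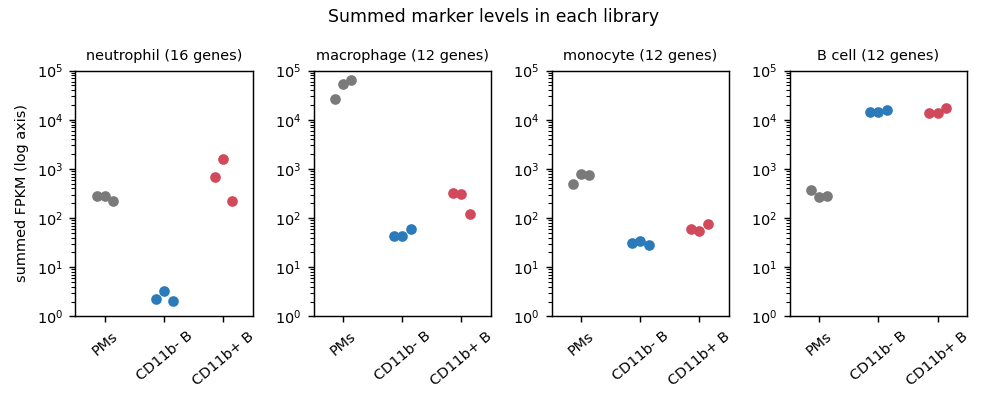
Summed FPKM of marker genes in each library on a log axis, for neutrophils, macrophages, monocytes and B cells. Points are libraries. Neutrophil sums in CD11b+ B cells ran from 219.9 to 1611, above the CD11b- range of 2.07 to 3.31, and B cell sums overlapped between the B cell groups.

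CD11b+ B cells were then compared with PMs, a comparison that asks how near their factors come to those of a macrophage. Of the 9 genes, 8 were called, against a background of 30.3% of 22102 genes. The 6 lower genes were *Spi1*, *Cebpa*, *Cebpb*, *Cebpd*, *Klf4* and *Maf* (8.78% of all genes were called lower), and the 2 higher ones were *Irf8* and *Gfi1* (21.5% called higher). The same 8 genes had no overlap between the groups, a property of 46.7% of all genes tested. The median difference of the 9 genes was -2.59 on the log2(FPKM + 1) scale and that of all genes was 0.25.

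*Cebpb* fell furthest, by 4.92 ± 0.39 on the log2(FPKM + 1) scale (SE; limma adjusted p = 6.36e-05), followed by *Cebpa*, which fell by 4.01 ± 0.26 (limma adjusted p = 1.94e-05). *Klf4* fell by 3.70 ± 0.29, *Maf* by 3.07 ± 0.33 and *Cebpd* by 2.60 ± 0.33, with adjusted p-values from limma of 5.23e-05 to 0.000787. *Spi1* fell by 1.29 ± 0.26 (limma adjusted p = 0.00673), to 39.1% of the PM mean. The 6 differences were graded on this scale, which understates the change of genes near 0 FPKM, and that of *Spi1* was the smallest. As ratios, the PM mean was 259 times the CD11b+ mean for *Cebpb*, 112 for *Cebpa*, 27.8 for *Klf4* and 2.56 for *Spi1*. *Irf8* was higher by 2.46 ± 0.17 (limma adjusted p = 3.01e-05), a mean FPKM 5.76 times as high. *Gfi1* was higher by 1.52 ± 0.31 (limma adjusted p = 0.00774), and edgeR on whole reads did not call it (adjusted p = 0.0657). *Cebpe* differed by 0.31 ± 0.20 (limma adjusted p = 0.277), and without the third CD11b+ library, where it was at 0, by 0.50 (limma adjusted p = 0.0456).

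CD11b- B cells were set against the same 3 PM libraries, so the comparisons with PMs are not independent. All 8 genes that passed the filter on low FPKM were called, where 36.7% of 20985 genes were called, and *Cebpe*, with 6 reads in all 6 libraries, was not tested. The same 6 genes were lower (11% of all genes) and the same 2 higher (25.8% of all genes), and all 8 had no overlap (51.4% of all genes). *Cebpb* fell by 5.01 ± 0.39, *Klf4* by 4.24 ± 0.24, *Cebpa* by 4.20 ± 0.24, *Maf* by 3.31 ± 0.32 and *Cebpd* by 2.91 ± 0.30 on the log2(FPKM + 1) scale, with adjusted p-values from limma of 1.11e-05 to 0.000298. The order of these falls depends on the scale. As ratios, the PM mean was 931 times the CD11b- mean for *Cebpa*, 480 for *Cebpb* and 108 for *Klf4*, and the *Cebpa* ratio rests on 5 reads in CD11b- B cells. *Irf8* was higher by 2.77 ± 0.15 and *Gfi1* by 2.0 ± 0.33 on the log2(FPKM + 1) scale. *Spi1* fell by 1.08 ± 0.25 (limma adjusted p = 0.0120), to 45.5% of the PM mean, and lost the call when CD11b- library 1 or 2 was left out (adjusted p = 0.0564 and 0.0566). For the comparisons with PMs, median-ratio scaling moved the median of all genes from 0.25 to 0.13 for CD11b+ and from 0.24 to 0.07 for CD11b- B cells, and the share of higher genes among those called from 71.0% to 53.2% and from 70.1% to 52.5%. Each gene tested kept its direction in the alternatives that gave it a value. *Cebpe* had none from edgeR, and for CD11b- B cells against PMs it had a value without the filter and with all 9 libraries in one fit, both -0.06 and not called (limma adjusted p = 0.589 and 0.839).

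**Figure D4:**
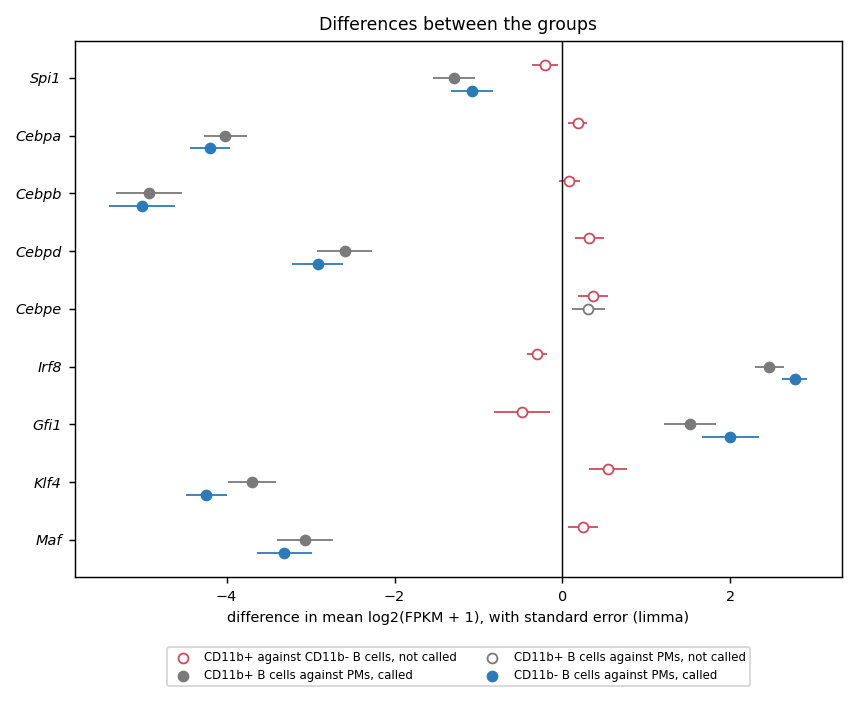
Difference in mean log2(FPKM + 1) for the 9 genes in the 3 comparisons. Points are limma estimates, bars are standard errors, and filled points were called at an adjusted p under 0.05. All differences between the B cell groups lie between -0.48 and 0.54 and are open, and *Cebpe* has no value for CD11b- B cells against PMs.

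The families of the 9 genes were examined next, with lists of relatives and of known target genes. Their counts are read against the shares of all genes given above, which against PMs were 21.5% higher and 8.78% lower for CD11b+ B cells and 25.8% and 11% for CD11b- B cells. Between the B cell groups these shares were 7.68% at an unadjusted p under 0.05 with limma, 0.269% with edgeR and 2.26% with DESeq2. In the C/EBP family the other relatives on the list, *Cebpg* and *Ddit3*, were the most abundant in B cells, and *Cebpg* was called lower in CD11b+ B cells than in PMs (-0.97). *Cebpg*, a short form that lacks an activation domain, was at 24.2 ± 6.69 FPKM in PMs, 12.4 ± 1.31 in CD11b- and 11.6 ± 1.12 in CD11b+ B cells, and *Ddit3*, the stress factor CHOP, at 17.8, 18.1 and 16.5. The summed FPKM of all 6 was 82.9 to 144 in PMs and 25.9 to 36.3 over the B cell libraries. *Cebpa*, *Cebpb*, *Cebpd* and *Cebpe* together made up 63.9, 59.2 and 54.6% of that sum in PMs. They made up 0.934, 1.12 and 0.970% in CD11b- B cells and 3.39, 5.55 and 2.67% in CD11b+ B cells, without overlap between these groups. Within the CD11b+ share *Cebpd* took most in library 2, at 2.63% of the family sum, and *Cebpe* up to 1.79%.

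**Figure D5:**
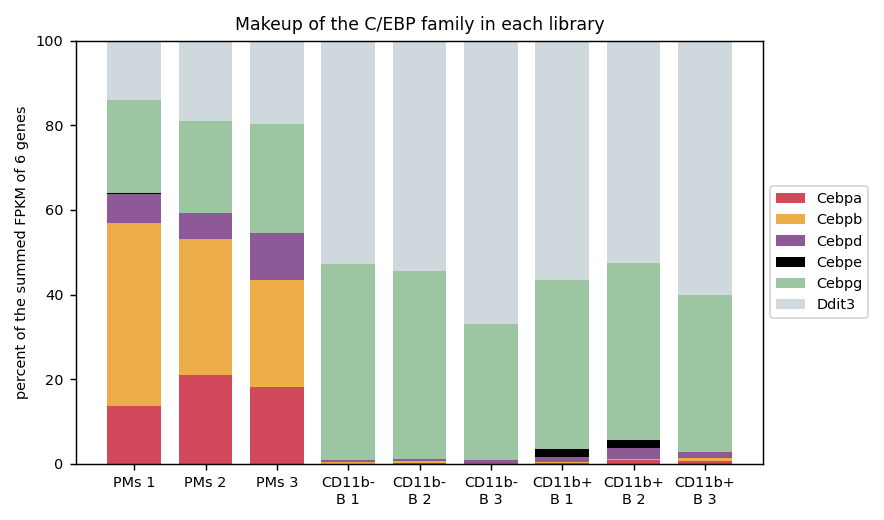
Share of each of 6 C/EBP family genes in their summed FPKM, 1 bar per library, on an axis from 0 to 100%. *Cebpa*, *Cebpb*, *Cebpd* and *Cebpe* fill over 50% of each PM bar, about 1% of each CD11b- bar and up to 5.55% of a CD11b+ bar.

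Among 12 other ETS genes of blood cells, 8 were higher (21.5% of all genes) and 2 lower (8.78%) by the same test in CD11b+ B cells against PMs, with *Spib* (6.31), *Ets1* (5.43) and *Elf1* (2.61) leading on the log2(FPKM + 1) scale. The number higher was 4 with median-ratio scaling or quantile normalization, 6 with edgeR and 7 with DESeq2, and *Spib*, *Ets1* and *Elf1* were called in each. *Spib* encodes Spi-B, the nearest relative of PU.1, which is restricted to lymphoid and plasmacytoid cells. The level of *Spi1* relative to *Spib* was 8.61, 20.7 and 36.7 in PMs, 0.0543 to 0.0587 in CD11b- and 0.0748 to 0.0795 in CD11b+ B cells. *Spib* itself was at 684 to 897 FPKM in CD11b- and 438 to 532 in CD11b+ B cells. Between the B cell groups limma called 0 of these 12 genes, with 7 at an unadjusted p under 0.05, edgeR called 0 and DESeq2 called 2, *Spib* (lower) and *Spic* (higher).

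Against PMs, limma called 3 of 8 other IRF genes higher in CD11b+ B cells and 0 lower, where 21.5% and 8.78% of all genes were called, so that with 8 genes the count is near the background. *Irf4*, the plasma cell factor that shares binding sites with IRF8, rose by 1.68 on the log2(FPKM + 1) scale. The calls of *Irf9* (0.79) and *Irf5* (0.62) were lost with median-ratio scaling, quantile normalization, edgeR and DESeq2, each of which called *Irf4* higher and 1 gene lower, *Irf2* (-0.79, not called by limma as given here). *Irf8* relative to *Irf4* was 2.51 to 2.75 in PMs, 3.03 to 5.43 in CD11b- and 4.01 to 4.58 in CD11b+ B cells. Between the B cell groups limma, edgeR and DESeq2 called 0 of the 8, and 1, *Irf7*, had an unadjusted p under 0.05 with limma.

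Against PMs, CD11b+ B cells had 6 of 12 other KLF genes called lower and 1 higher, with *Klf9* (-3.99), *Klf10* (-2.79) and *Klf2* (-1.79) leading on the log2(FPKM + 1) scale. The 1 higher gene, *Klf12*, lost its call with median-ratio scaling, quantile normalization and edgeR. *Klf2*, which keeps lymphocytes quiescent, was at 420.5 ± 123 FPKM in PMs, 124 ± 56.1 in CD11b- and 125 ± 52.5 in CD11b+ B cells. It exceeded *Klf4* by 16.3 to 21.2 times in PMs, by 583 to 786 times in CD11b- and by 89.9 to 266 times in CD11b+ B cells. Neither edgeR nor DESeq2 nor limma called any KLF gene between the B cell groups, where limma gave 1 (*Klf11*) an unadjusted p under 0.05.

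In the MAF family, *Mafg* and *Mafk*, small MAF proteins without an activation domain, differed by -1.64 and 1.21 in CD11b+ B cells against PMs, and limma called both. The call of *Mafk* was lost with median-ratio scaling, quantile normalization and edgeR. Between the B cell groups *Mafg* and *Mafk* had an unadjusted p under 0.05 with limma, and limma, edgeR and DESeq2 called neither. The other genes of this list and its counts are not reported here.

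*Gfi1b*, the relative of *Gfi1* in erythroid and megakaryocytic cells, was the higher of the pair in PMs, at 7.98, 2.43 and 8.37 FPKM. It was at 0.235 to 0.409 in CD11b- and 0.0620 to 0.501 in CD11b+ B cells, and was called lower than in PMs (-2.47, CD11b+). Of the corepressors that GFI1 recruits, *Hdac1* was called higher than in PMs (2.09), and *Kdm1a* and *Rcor1* were not called (0.17 and -0.01). No gene of this list had an unadjusted p under 0.05 between the B cell groups, and edgeR and DESeq2 called 0.

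The lists of known target genes gave another view. Of 10 PU.1 targets, 8 were called lower in CD11b+ B cells than in PMs, with a median of -4.09 on the log2(FPKM + 1) scale against 0.25 for all genes. *Lyz2*, lysozyme, was at 261, 240.3 and 65.4 FPKM in the CD11b+ libraries and 30.1 to 42.2 in the CD11b- libraries. Between the B cell groups limma called 0 of the 10, with 6 at an unadjusted p under 0.05, edgeR called 1 (*Csf1r*, the receptor for M-CSF) and DESeq2 called 4.

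The 6 granule genes controlled by C/EBPε (*Ngp*, *Ltf*, *Camp*, *Lcn2*, *Mmp8* and *Chil3*) included 3 that limma called higher against PMs for CD11b+ B cells, namely *Ngp* (6.30), *Camp* (4.52) and *Ltf* (4.31). They had no overlap between the B cell groups, with all 6 above in CD11b+ B cells (background 8.63%). Their median difference was 4.49 on the log2(FPKM + 1) scale. limma called 0 of these 6, with 6 at an unadjusted p under 0.05, and edgeR called 5 and DESeq2 6. *Ngp*, which encodes a neutrophil granule protein, was at 135, 340.0 and 24.1 FPKM in CD11b+ libraries 1 to 3, and *Mpo*, the primary granule myeloperoxidase, was at 8.51, 2.79 and 0. *Cebpe* was at 0.466, 0.523 and 0 in the same 3 libraries, so that library 3 was lowest for all 3 genes. Of these granule genes, 5 are also in the list of neutrophil markers, and their part in the values of *Cebpe* was not tested.

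A further list of 11 C/EBP targets, which also holds *Lcn2*, had 5 genes called lower than in PMs for CD11b+ B cells and 1 called higher, the primary granule protease *Elane*. Between the B cell groups limma called 0 of the 10 tested, with 7 at an unadjusted p under 0.05, edgeR called 2 and DESeq2 5. Of 6 IRF8 targets, limma, edgeR and DESeq2 called 0 between the B cell groups, and 0 had an unadjusted p under 0.05 with limma. *Ciita*, which switches on MHC class II genes, was the 1 of these 6 called higher against PMs for CD11b+ B cells, at 43.3 ± 2.88 against 4.59 ± 0.850 FPKM, and 4 were called lower.

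Of 7 targets of KLF4 or c-MAF, 6 were called lower in CD11b+ B cells than in PMs. The exception was *Il10*, a target of c-MAF, at 8.01, 0.0261 and 0 FPKM in PMs, 0.549, 0 and 0 in CD11b- B cells and 2.57, 1.58 and 0.715 in CD11b+ B cells. Every CD11b+ value exceeded every CD11b- value, and the difference of 1.12 on the log2(FPKM + 1) scale was not called (limma adjusted p = 0.460). The order of *Il10* in the CD11b+ libraries was not that of *Maf*, which was highest in library 3. limma called 0 of the 7 between the B cell groups, with 5 at an unadjusted p under 0.05, edgeR called 1 and DESeq2 5, of which 3 were complement C1q genes.

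For CD11b- B cells against the same PMs, limma called 9 ETS genes higher and 1 lower, 4 IRF genes higher and 0 lower (1 and 1 with median-ratio scaling, edgeR or DESeq2), 1 KLF gene higher and 6 lower, and *Hdac1* higher and *Gfi1b* lower. Of the targets it called 0 higher and 8 lower for PU.1, 0 and 7 for C/EBP, 0 and 2 for the granule genes, 1 and 4 for IRF8, and 0 and 6 for KLF4 and c-MAF.

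The pattern of each gene over the 9 libraries was compared with that of the 12493 genes with a mean of at least 1 FPKM, by Pearson's r of log2(FPKM + 1). The groups differ widely, so r mostly reflects the 3 group means and is given as a description. The nearest genes to *Spi1* were *Taldo1* (r = 0.982), *Rps4l* (0.978) and *Lima1* (0.973). Those nearest to *Irf8* were *4930523C07Rik*, *Cd79b* and *Cd72*, with r of at least 0.9986 over 9 libraries, and *Cd79b* is part of the B cell receptor. *Gfi1* was nearest to *Rgs19*, *Ccdc117* and *Cmtr1* (0.979 to 0.986). *Cebpa* was nearest to *Itpripl2*, *Gm13431* and *Dab2*, *Cebpb* to *Cxcl2*, *Itsn1* and *B4galt6*, *Cebpd* to *Gm14010*, *Ppfia4* and *Tnfsf13b*, *Klf4* to *Clec4b1*, *Ptafr* and *C1rl*, and *Maf* to *Ptpre*, *Zfhx3* and *Aqp9*, all with r from 0.996 to 0.999. *Cebpe* stood apart from these, with *Fcnb* (0.947), *Mpo* (0.894) and *Lcn2* (0.891), genes of neutrophils and their precursors, as its nearest.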

How the data were processed

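RNA of 9 libraries (3 per group, from the labels) had been made into cDNA with a SMART-seq HT kit and read as pairs. The authors trimmed the reads (Trim Galore 0.4.4, Trimmomatic 0.36, cutadapt 1.16), mapped them with STAR 2.7.2b and counted them with featureCounts 1.6.1. The submitters' notes name the builds GRCm38 and GRCm39. The FPKM values that the authors deposited are counts per exon length and per reads counted. The authors' second deposited table holds, as a signal, the counts of 11063 genes divided by size factors, preselected at a p-value of 0.05 by a test not given in the sources used here, with clusters of genes, which were not used. Gene starts in the table equal those of GENCODE M21 (GRCm38) for 1462 of 52046 genes alone, so the table's own coordinates are not printed, and the positions given are those of GENCODE M21, matched by identifier.

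FPKM times exon length gave whole reads for 100% of values, within 0.05 of a read, and so did the second table (100%), which gave the depths. The main test was limma 3.58.1 (R 4.3.3, trend, two-sided) on log2(FPKM + 1) for 6 libraries, for genes whose FPKM averaged 0.05 or more, adjusted over all such genes (Benjamini-Hochberg). Exact permutation tests (scipy 1.17.1) were run on mean FPKM, and counting intervals (95%) are exact binomial. Alternatives were another pseudocount, filters, scalings, replicate blocks, all 9 libraries in one fit, each library left out, edgeR 4.0.16 and DESeq2 1.42.0 on whole reads, and edgeR on the second table, which called 59, 6520 and 7308 genes for CD11b+ against CD11b- B cells, CD11b+ B cells against PMs and CD11b- B cells against PMs. The scripts were tested on simulated data. The 9 genes and the 24 lists of relatives, targets and markers were chosen with earlier results of these data known. From each list of relatives or targets, genes past the threshold with the 3 largest differences could be named, or any gene past it, and otherwise the 2 most abundant; from marker lists the 2 highest in CD11b+ libraries and any at 0; for each of the 9 genes its 3 nearest by r. *Itgam*, *Il10*, *Lyz2*, *Kdm1a*, *Rcor1*, *Ddit3*, *Mrc1*, *Mpo*, the genes at an unadjusted p under 0.05 and those called by another tool were named after their values were seen. Some genes of the lists are not reported here.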

Additional observations from a re-analysis of the deposited data

How the results depend on the processing

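The number of the 9 genes called kept within 1.5 times of the reported one in every alternative. It was 0 between the B cell groups in all of them and ranged, with 1 library left out, from 0 to 0 there, from 8 to 9 for CD11b+ B cells against PMs and from 7 to 8 for CD11b- B cells against PMs. Of 410 differences of single genes recomputed, 0 changed direction and 4 crossed the threshold, namely *Gfi1* with edgeR, *Spi1* and *Cebpe* as given with the comparisons. Depth limits *Cebpa*, *Cebpb* and *Cebpe* in B cells, where 1 read is worth 0.0108 to 0.0308 FPKM. The number of all genes called between the B cell groups was 15 and moved with the processing, to 2 without a filter, 31 at a mean FPKM of at least 1, 37 with a pseudocount of 0.1, 35 with all 9 libraries, 9 after quantile normalization, 42 with edgeR, 392 with DESeq2, and 3 to 40 with 1 library left out (40 without CD11b+ library 3, 3 without CD11b- library 1), the cause of which was not tested. edgeR on the second table called 59, a count made within genes already selected by a p-value and so not comparable with the others. A replicate block by the numbers in the titles left 0, 8 and 8 of the 9 genes called in the 3 comparisons. Libraries of the B cell groups with the same title number correlated at 0.284, -0.0193 and 0.206 in their deviations. Pairs of a B cell and a PM library with the same title number ran from -0.14 to 0.0963, so title numbers were not taken as pairs. The B cell pairs at 0.284 and 0.206 also share a description number and were the highest among the B cell pairs. The other B cell pairs ran from -0.297 to 0.143. Whether libraries that share a description number came from the same mouse was not tested. A replicate block by the numbers in the descriptions, of which the B cell groups share 2, left 0 of the 9 genes and 0 of all genes called between these groups. In that block a library whose number is not shared adds nothing to the comparison. The fit therefore rests on 2 pairs of libraries, too few for its counts of 0 to be read.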

Other observations

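Other transcription factors of the myeloid lineages were measured in the same libraries. Against PMs, limma called 12 of 30 such genes lower in CD11b+ B cells (8.78% of all genes) and 6 higher, a share near that of all genes (21.5%). *Gata6*, the factor that marks peritoneal macrophages, fell by 3.84 on the log2(FPKM + 1) scale, *Id2* by 3.80 and *Batf3* by 3.58. *Gata6* was at 10.5 to 18.5 FPKM in PMs and below 0.06 in every B cell library. *Myb* and *Egr1* were higher in CD11b+ B cells, by 2.66 and 2.57. All 11 B cell factors on their list were called higher in both B cell groups than in PMs (21.5% of all genes for CD11b+ and 25.8% for CD11b- B cells), although *Tcf4* lost the call with median-ratio scaling and quantile normalization in both, and with edgeR and DESeq2 for CD11b- B cells. limma, edgeR and DESeq2 called 0 of the 11 between the B cell groups, where 1, *Tcf3*, had an unadjusted p under 0.05 with limma.

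Between the B cell groups limma called 0 of the 28 other myeloid factors tested, with 6 at an unadjusted p under 0.05 (7.68% of all genes), edgeR called 0 (0.269%) and DESeq2 called 5 (2.26%). One of these 5 was *Nr1h3*, the liver X receptor of macrophages, at 1.67, 2.46 and 1.04 FPKM in the CD11b+ libraries and 0.0992 to 0.238 in the CD11b- libraries. The 6 plasma cell markers all had the higher mean in CD11b+ B cells, with a summed FPKM of 191, 154 and 546 against 27.0 to 69.5, and limma called none of the 6 (4 at an unadjusted p under 0.05, 0 by edgeR and 3 by DESeq2). The lists for T and NK cells, plasmacytoid and conventional dendritic cells, basophils, mast cells and eosinophils, erythroid cells, and stem and progenitor cells had summed FPKM in CD11b+ B cells of 2.91 to 4.24, 56.3 to 85.9, 1.76 to 2.64, 5.13 to 16.5, 32.6 to 44.6 and 547 to 719. The same lists had sums in CD11b- B cells of 0.0614 to 2.66, 44.4 to 47.9, 0.765 to 2.44, 0.253 to 1.99, 1.73 to 23.2 and 289 to 375. Of the 6 stem and progenitor genes only 3 passed limma's filter on low FPKM between the B cell groups, so their sum rests on few genes. limma called 0 of these 3, DESeq2 called 1 gene of the list, *Ly6a* (higher), and *Hlf* was at 0 reads in CD11b+ B cells.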
